A study of Mus musculus with 22 samples.

Results

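RNA was measured in 6 mouse tumours labelled with the genotype SS18-SSX+/- and no loss of Smarcb1, out of 22 tumours in the series. They fall into 2 groups by title. The titles of 3 libraries (tags N381, N428 and N460) name Myf5, which is read here as the Myf5Cre written out for other tumours of the series, and these are called the Myf5Cre group. The titles of the other 3 (tags A, B and N2) name neither Myf5 nor a Cre, and these are called the Cre-unstated group. Cre recombinase switches alleles on or off in the cells that hold it, and Myf5Cre is driven by the Myf5 gene, which is active in muscle progenitors. No Cre is assumed for A, B and N2. The labels state neither age nor sex, and they do not say that each library came from a separate animal, so p-values measure the spread between these libraries, which may be technical in part. The descriptions also number the libraries in series, with 11264 for the Myf5Cre group and 11361 for the Cre-unstated group, so the Cre label and the number series cannot be told apart. The strain label runs from C57BL/6 to C57BL/11 over the 6 libraries, rising by 1 with each, and was not used. The 16 other tumours serve as the comparison for what the 6 share. They lack Smarcb1 (label Snf5-/-, the older name of the gene) with TATCre, a Cre protein that enters cells (5 libraries), or with Myf5Cre (3), or carry the fusion and lack Smarcb1, with TATCre (4) or Myf5Cre (4). All 16 belong to another number series.

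SS18-SSX is the fusion protein that defines synovial sarcoma, a soft tissue tumour. SS18 belongs to the BAF complex, a form of SWI/SNF that remodels chromatin and also holds Smarcb1, and the SSX portion is known for binding chromatin marked by Polycomb complexes, which keep developmental genes silent. Tle1, a transcriptional corepressor, is a marker used in the diagnosis of synovial sarcoma. A bulk tumour also holds vessels, immune cells and the tissue it grew in, and here fewer cells of a type and less RNA per cell cannot be told apart.

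Total counts were 17067570 in N381, 18949432 in N428, 25177722 in N460, 8642648 in A, 16051501 in B and 15040518 in N2. Smarcb1 (ENSMUSG00000000902, chromosome 10, 75896769 to 75921617, GRCm38, minus strand), deleted in the other 16, stood at 5.56, 6.23 and 5.96 log2 CPM (counts scaled to library size, with a prior count of 2) in N381, N428 and N460 and at 6.58, 6.80 and 6.41 in A, B and N2, all above the highest of the 16 others (4.76). Tle1 stood at 7.90, 8.45 and 8.64 in the Myf5Cre group and at 7.69, 8.11 and 8.00 in the Cre-unstated group. Myf5 itself was at or below -0.97 log2 CPM in all 6, so the transcript of the gene that drives the Cre was near absent. Counts summed over 6 Y-linked genes were 9 or fewer in each of the 6 libraries, and Xist, the RNA of the inactive X chromosome, was between 9.61 and 11.77 log2 CPM in all 6, with 11.8% of its 50-base stretches found in other genes. N381 and A stood apart from the other 4 by mature skeletal muscle transcripts, whose list mean was 7.02 and 6.63 log2 CPM in them against -0.54 to 2.73 in the rest. B and N2 were the most alike pair (r = 0.975 across genes), yet 200 genes differed by over 2 log2 between them. They were kept as 2 libraries, and values with them summed are given below.

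A gene was counted as shared by all 6 where edgeR's quasi-likelihood test of the SS18-SSX tumours against the other 16 gave an adjusted p (Benjamini-Hochberg over all genes tested) below 0.05 and all 6 libraries lay on the same side of all 16. Of 18929 genes tested, 363 (1.92%) were higher in all 6 and 308 (1.63%) were lower in all 6. All 16 others lack Smarcb1, and the combined tumours among them (4 with TATCre and 4 with Myf5Cre) carry the fusion too. These genes therefore separate fusion tumours that kept Smarcb1 from tumours that lost it, rather than the fusion from its absence. The number series divides the libraries the same way, and the contribution of each cannot be told apart. Summed Y-linked counts differed as well, at 9 or fewer in each of the 6 and 1 to 9672 in the 16 others. The highest were 5595 in Snf5-/- tumours with TATCre and 29 with Myf5Cre, and 9672 and 7940 in combined tumours with TATCre and Myf5Cre. The part of this was not tested beyond a fit to libraries with few Y-linked counts, given near the end. The number lower in all 6 was 535 without N428, 575 without N460, 607 without A and 465 without B, with a rule over 5 libraries in place of 6. Among the 363 genes higher in all 6, edgeR called 0 between the 2 groups, beside 2.11% of all genes tested. At an unadjusted p below 0.05 it had 7 higher and 12 lower, while DESeq2 called 3 and 2 and limma voom 10 and 23. Both sets were selected for all 6 libraries lying on the same side of the 16, so low counts may in part result from that selection. Among the 308 lower, edgeR called 5, beside the same 2.11%. They were Rprl3, Mrps14 (a mitochondrial ribosomal protein) and the predicted pseudogenes Gm3375, Gm5828 and Gm9825, named after their values were seen.

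An adjusted p above the threshold does not show that groups are alike, so the 95% interval of the difference was used as a bound. It lay wholly between -1 and 1 log2 for 3815 of 18929 genes (20.2%), and for 47 of the 363 and 133 of the 308 shared genes. Within those bounded genes, Prickle2, a component of the planar cell polarity pathway (ENSMUSG00000030020, chromosome 6, 92370908 to 92706155, minus strand), had the largest rise of the named genes against the other tumours. It stood at 6.52, 6.44 and 6.10 log2 CPM in N381, N428 and N460 and at 6.65, 5.95 and 5.98 in A, B and N2, against 0.38 to 3.33 in the 16 others. The 2 groups overlapped, and all 6 lay far above the highest of the 16. The difference from the others was 4.17 ± 0.23 log2 (SE), and the difference between the groups was 0.13 (95% interval -0.73 to 0.99).

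The other bounded genes higher in all 6 rose by smaller amounts. Arvcf, a catenin of cell junctions, rose by 2.13 ± 0.21 log2 and Rab27a, a GTPase of secretory vesicles, by 2.03 ± 0.23. The kinase Stk39 rose by 1.48 ± 0.20, and Pcgf2, a subunit of Polycomb repressive complex 1, by 1.49 ± 0.17. For Pcgf2 the levels were 4.86, 4.81 and 4.93 in the Myf5Cre group and 4.74, 5.18 and 4.47 in the Cre-unstated group, all above the 16 others (2.51 to 4.34). The groups overlapped.

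Of the named bounded genes lower in all 6, Cox7a2, a subunit of respiratory complex IV, fell by 1.88 ± 0.29 log2 (SE) and Uqcrb, a subunit of complex III, fell by 1.85 ± 0.20. Atp5g3, of the ATP synthase ring, fell by 1.78 ± 0.23, and Tmem70, an ATP synthase assembly factor, fell by 1.65 ± 0.23. The largest fall was in Fdps, the farnesyl diphosphate synthase of the isoprenoid pathway, which stood at 1.65, 1.96 and 1.52 log2 CPM in the Myf5Cre group and at 1.06, 1.83 and 2.18 in the Cre-unstated group, against 2.71 to 4.98 in the 16 others. Of its transcripts' 50-base stretches 26.2% occur in other genes (25.5% for Uqcrb), so their counts are uncertain. The plot of the bounded shared genes shows the 6 libraries outside the range of the 16 for each.

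**Figure D1:**
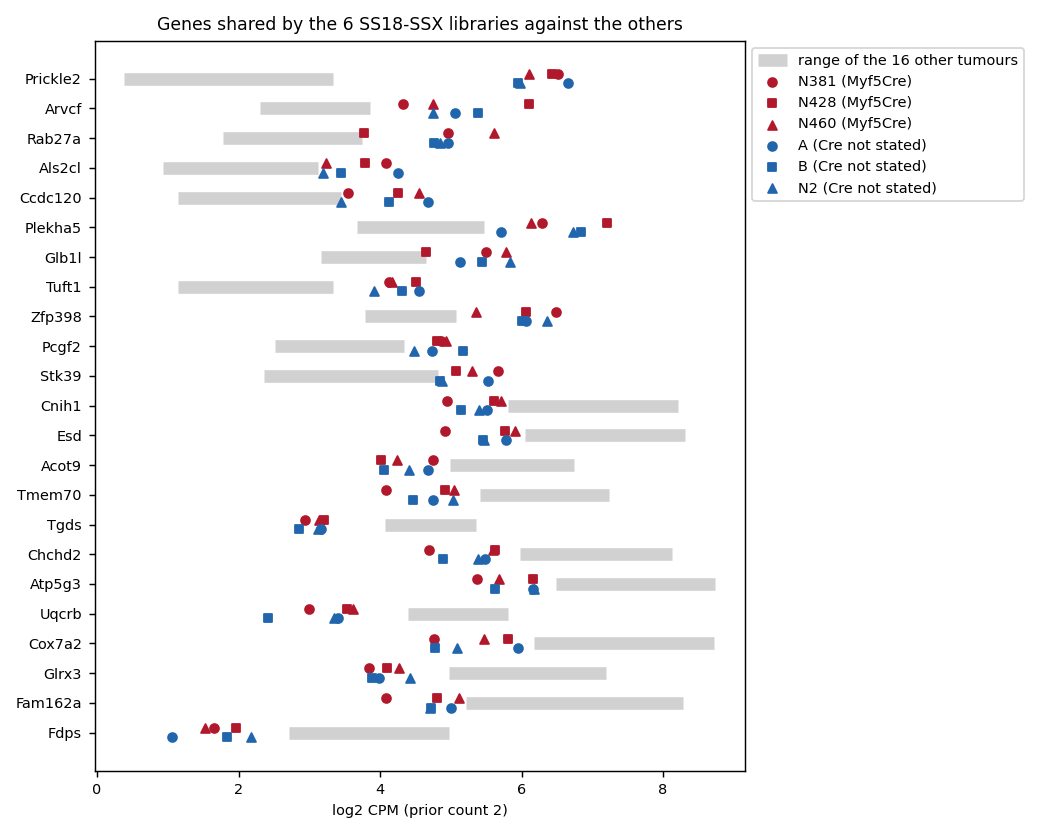
Levels (log2 CPM, prior count 2) of 11 of the 12 highest and of the 12 lowest genes by difference from the other tumours, among genes shared by all 6 SS18-SSX libraries with a bounded difference between the groups. Points are libraries (red Myf5Cre, blue Cre not stated) and grey bars span the 16 other tumours; for Prickle2 the 6 libraries sit between 5.95 and 6.65 and the bar ends at 3.33.

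Other shared genes were further from the 16 others but varied more among the 6, and those named here were chosen after their values were seen. Otof, the otoferlin gene of hair cell synapses, stood at 5.09, 4.64 and 6.48 log2 CPM in the Myf5Cre group and 5.82, 8.28 and 7.54 in the Cre-unstated group, above all 16 others (highest 1.68). Rec8, a meiotic cohesin subunit, ranged from 0.27 in A to 6.18 in N428, with the 16 others at or below -0.36. Myocd, a coactivator of smooth and cardiac muscle genes, was 7.22 in N381 but 2.47 and 2.37 in N428 and N460. All 6 exceeded the 16 others for these genes. The wider range lay within the Cre-unstated group for Otof and Rec8 and within the Myf5Cre group for Myocd. Dmbx1 and Irx2, both homeobox factors, were steadier, at 4.35 to 5.91 and 5.33 to 7.13.

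Of the 32 tested genes of the synovial sarcoma list, 0 were called between the groups by edgeR, beside 2.11% of all genes. There were 2 at an unadjusted p below 0.05, 0 by DESeq2 and 0 by limma voom. The median difference was -0.04 log2 beside 0.09 over all genes. Only Zic2, a zinc finger factor of the neural tube, met the rule for all 6 in that list. It stood at 6.51, 8.94 and 8.38 in the Myf5Cre group and at 7.64, 8.14 and 7.43 in the Cre-unstated group. Tle1 did not meet it, because the highest of the 16 others, at 7.79, lay above library A. The 2 groups overlapped for both Zic2 and Tle1, and the difference for Tle1 was 0.42 (95% interval 0.01 to 0.83, adjusted p = 0.285).

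Of 30 tested BAF subunits, 12 had an interval of the difference inside 1 log2, beside 20.2% of all genes, and the other 18 were not bounded. At an unadjusted p below 0.05, 4 were higher and 1 lower, and limma voom called 2 and 2. By edgeR 1 was called, beside 2.11% of all genes. It was Smarce1, a DNA-binding subunit, higher in the Myf5Cre group by 1.51 ± 0.36 log2 (adjusted p = 0.037). It stood at 5.31, 6.15 and 6.39 log2 CPM in N381, N428 and N460 and at 4.17, 4.11 and 5.05 in A, B and N2, with no overlap. Of its 50-base stretches 15.0% occur in other genes. Against the other tumours Smarca2, an ATPase of the complex, was higher in all 6 by 2.18 log2 with a difference of 0.13 between the groups (adjusted p = 0.946). Of 36 tested Polycomb subunits 13 had an interval inside 1 log2 and 1 was called, Bmi1 of repressive complex 1, higher in the Myf5Cre group by 2.22 ± 0.49 (adjusted p = 0.026). Its levels were 3.84, 5.99 and 5.60 against 3.30, 2.60 and 3.52, and 16.7% of its stretches occur in other genes.

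Between the groups, 236 genes (1.25% of 18929) were higher in the Myf5Cre group and 164 (0.866%) lower, 400 in all (2.11%). Of the 400, 387 had no overlap between the 3 and the 3 libraries, beside 17.3% of all genes tested. The direction stayed the same for all 400 without any 1 library, but the number of calls moved with which library was left out. Without N381 there were 439 higher and 163 lower, and without N2 there were 419 and 373. Without N428 there were 43 and 25, without N460 52 and 55, without A 38 and 45, and without B 17 and 16. Fitted on the 6 libraries alone, which have few residual degrees of freedom, 1 gene was higher and 0 lower (1215 and 868 at an unadjusted p below 0.05), so the other calls were made only with the spread estimated over all 22. The gene was Rprl2.

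Rprl2 and its relative Rprl3, annotated as ribozymes and named for their likeness to Rpph1, the RNA of RNase P (the enzyme that trims transfer RNA precursors), held the largest differences among the named genes higher in the Myf5Cre group, with predicted models left out (the pseudogene Gm3375 differed by 6.08 log2). They are shown because the pair is near-identical in sequence. Both are 290 bases long with 92.1% identity, and the 23 positions that differ are in capitals (GENCODE M21 transcripts, GRCm38, 5′ to 3′).
Rprl2 (ENSMUSG00000087775, chromosome 3, 22251374 to 22251663, plus strand): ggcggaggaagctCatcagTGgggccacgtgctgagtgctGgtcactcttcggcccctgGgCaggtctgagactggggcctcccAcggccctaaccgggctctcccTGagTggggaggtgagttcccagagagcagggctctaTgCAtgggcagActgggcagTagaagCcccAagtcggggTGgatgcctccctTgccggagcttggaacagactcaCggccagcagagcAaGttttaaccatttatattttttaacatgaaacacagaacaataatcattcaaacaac
Rprl3 (ENSMUSG00000088025, chromosome 8, 3803069 to 3803358, minus strand): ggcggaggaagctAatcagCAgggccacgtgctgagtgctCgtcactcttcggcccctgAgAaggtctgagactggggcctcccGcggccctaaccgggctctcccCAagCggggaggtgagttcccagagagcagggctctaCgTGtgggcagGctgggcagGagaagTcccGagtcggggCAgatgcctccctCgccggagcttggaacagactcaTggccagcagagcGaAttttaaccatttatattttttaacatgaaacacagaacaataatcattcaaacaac
Of the 50-base stretches of each, 2.9% occur in another gene. The longest run shared with Rpph1 is 32 bases for Rprl2 and 37 for Rprl3.

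Rprl2 had 918, 1030 and 1135 counts in N381, N428 and N460 and 2, 2 and 1 counts in A, B and N2. The 16 other tumours had 115 to 698 counts, so A, B and N2 stood apart from the other 19 libraries. The ratio of the summed counts, scaled by library, was 382 (95% interval 164 to 1178, exact Poisson, covering counting error only). Rprl3 had 449, 509 and 499 counts in the Myf5Cre group, 14, 8 and 5 in the Cre-unstated group and 439 to 1752 in the 16 others. Scaled to library size, Rprl3 was at 22.3, 22.1 and 18.3 CPM in the Myf5Cre group, also below the 16 others (23.5 to 132). Its ratio was 33.5 (22.9 to 50.9). The fitted differences were 8.45 ± 0.81 log2 for Rprl2 (adjusted p = 4.8e-05) and 4.88 ± 0.73 for Rprl3 (adjusted p = 0.0034), and both stayed below 0.05 without each library in turn.

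Rpph1 itself went the other way without passing edgeR's test. It took 0.668%, 0.172% and 0.102% of all counts in N381, N428 and N460 and 8.65%, 3.02% and 0.218% in A, B and N2 (adjusted p = 0.064), with 0.588% to 3.11% in the 16 others. N2 lay within the Myf5Cre range, and 68.15% of the 50-base stretches of Rpph1 occur in other genes. Among the 4 tested ribozymes, DESeq2 and limma voom each called 2 higher and 2 lower in the Myf5Cre group, with Rpph1 among the lower. The other small structural RNAs are given further below.

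Among the named protein-coding genes higher in the Myf5Cre group, the pair with the largest differences lay near each other on chromosome 6. Ppp1r9a, which encodes the actin-binding protein neurabin (ENSMUSG00000032827, 4902917 to 5165661, plus strand), stood at 3.77, 7.15 and 5.90 log2 CPM in the Myf5Cre group and at 1.20, 1.68 and 2.40 in the Cre-unstated group, a difference of 4.35 ± 1.03 (adjusted p = 0.035). Sgce, which encodes epsilon-sarcoglycan (ENSMUSG00000004631, 4674350 to 4747207, minus strand), stood at 4.49, 3.94 and 6.44 against 1.39, 0.38 and 1.47, a difference of 4.30 ± 0.91 (adjusted p = 0.022). Neither overlapped between the groups. Both belong to the imprinted cluster of that chromosome, and the paternally expressed Peg10, which lies between them, was 5.25, 3.73 and 6.07 against 5.36, 1.13 and 1.38 (adjusted p = 0.69), with A at the level of the Myf5Cre libraries. Sgce was not called without N460 (adjusted p = 0.089), A (0.081) or B (0.19), and Ppp1r9a not without N428 (0.13), N460 (0.069), A (0.13) or B (0.24). With offsets for GC content, described below, the adjusted p was 0.051 for Sgce and 0.067 for Ppp1r9a. Of the 23 tested genes of the imprinted list, which does not hold Ppp1r9a, edgeR called 1, Sgce, beside 2.11% of all genes, while DESeq2 and limma voom each called 3. The list's median difference was 0.78 log2.

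Mmp16, a membrane-bound matrix metalloproteinase, stood at 4.86, 6.16 and 6.06 log2 CPM against 1.67, 2.15 and 3.32, a difference of 3.26 ± 0.58 (adjusted p = 0.0098). Rpl23, a ribosomal protein gene, stood at 6.36, 7.70 and 7.69 against 5.15, 4.79 and 5.08 (2.36 ± 0.36, adjusted p = 0.0036), and the Cre-unstated group lay below all 16 others (5.77 to 7.61). The mitochondrial complex I gene mt-Nd1 stood at 10.21, 8.79 and 10.70 against 6.84, 6.88 and 8.13 (2.68 ± 0.50, adjusted p = 0.012). In each the groups did not overlap. Of 9 tested genes encoded in the mitochondrial genome, mt-Nd1 alone was called by edgeR, beside 2.11% of all genes. At an unadjusted p below 0.05, 6 were higher and 0 lower. Rpl23 was called without each library in turn, while Mmp16 was lost without A (adjusted p = 0.062) or B (0.11) and mt-Nd1 without N460 (0.061), A (0.07) or B (0.12). Of the stretches of Rpl23, 19.3% occur in other genes. Of the 28 ribosomal protein genes in the list used here, which does not hold Rpl23, edgeR called 0, beside 2.11% of all genes. At an unadjusted p below 0.05 there were 5 lower, and DESeq2 called 2 lower and limma voom 1. The remaining named genes higher in the Myf5Cre group were Arpp21, Zfp970, Tfpi (an inhibitor of coagulation), Bbx and Cnrip1, with differences from 3.93 log2 for Arpp21 down to 2.7 for Cnrip1. Of the stretches of Zfp970, 49.7% occur in other genes.

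Of the named genes lower in the Myf5Cre group, Aox1, an aldehyde oxidase (ENSMUSG00000063558, chromosome 1, 58029931 to 58106413, plus strand), showed the largest difference, -4.69 ± 0.93 log2 (adjusted p = 0.016). Predicted models were left out of the naming, and some differed more, such as the small nuclear RNA Gm24407 (-5.68 log2). Aox1 stood at 3.89, 1.25 and 0.85 log2 CPM in the Myf5Cre group and at 7.50, 7.24 and 7.22 in the Cre-unstated group, whose 3 libraries lay close together and above all 16 others (highest 6.13). The groups did not overlap. Leaving out N428 (adjusted p = 0.072), N460 (0.065) or B (0.067) ended the call. Fosb, a subunit of the AP-1 transcription factor and an immediate early gene (ENSMUSG00000003545, chromosome 7, 19302696 to 19310051, minus strand), stood at 2.58, 1.62 and 2.17 against 5.38, 5.92 and 5.38, a difference of -3.44 ± 0.57 (adjusted p = 0.0068). It was called without each library in turn, and the Cre-unstated group again exceeded all 16 others (highest 4.03). Of the 24 tested immediate early and stress genes Fosb alone was called by edgeR, beside 2.11% of all genes (4 lower at an unadjusted p below 0.05). The list's median was -0.49. Fos, the partner of Fosb, was 5.44, 4.99 and 4.30 against 6.81, 7.77 and 7.33 without passing (adjusted p = 0.093).

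Of the other named genes lower in the Myf5Cre group, Scarna6 (-4.39 log2) is described with the small RNAs. Tnrc18 stood at 7.87, 8.16 and 7.96 against 9.49, 11.04 and 10.14, and the histone methyltransferase gene Setd1b at 4.83, 4.11 and 4.88 against 6.33, 7.07 and 6.01. Lars2, the mitochondrial leucyl-tRNA synthetase, stood at 4.23, 4.41 and 3.83 against 7.52, 7.65 and 4.57, so N2 was far closer to the Myf5Cre libraries than to A and B. Atp5e of the ATP synthase was lower by 2.79 ± 0.65, Ndufa2 of complex I by 2.03 ± 0.46 and Sdhaf4, a complex II assembly factor, by 1.94 ± 0.43 (7.64% of its stretches occur in other genes). For Atp5e, Ndufa2 and Rpsa the Myf5Cre group lay below all 16 others, and 28.8% of the stretches of Rpsa occur in other genes. That place was read for whole groups, so single libraries of the Cre-unstated group may lie below the 16 too. With single libraries left out, Atp5e, Ndufa2 and Rpsa were called only without N2. Of the 24 genes named for the difference, 4 (Rprl2, Rprl3, Fosb and Rpl23) were called without each of the 6 libraries in turn, and the other 20 lost the call in at least 1 of the 6. DESeq2 called all 24 and limma voom 22.

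**Figure D2:**
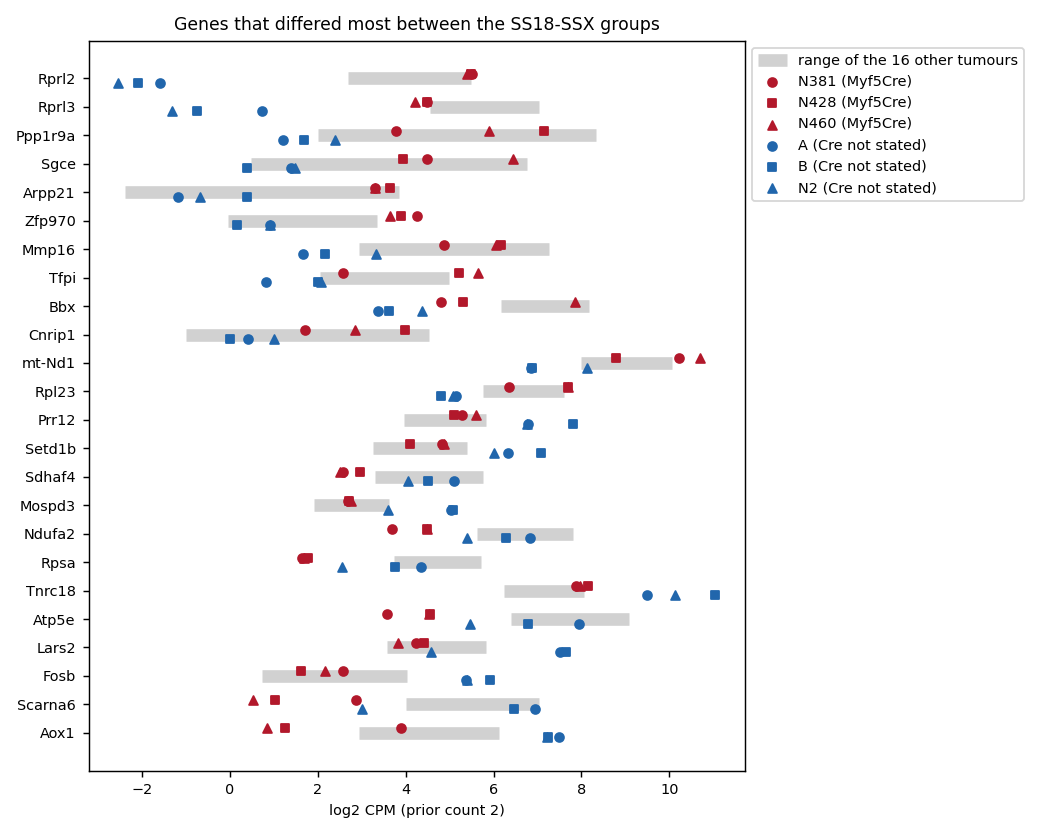
Levels (log2 CPM, prior count 2) of the 24 genes named for the difference between the SS18-SSX groups, 12 in each direction, with predicted models and genes of low level left out. Points are libraries (red Myf5Cre, blue Cre not stated) and grey bars span the 16 other tumours; for Rprl2 the Cre-unstated libraries lie below -1.58 or at it, left of the bar, and for Aox1 and Fosb they lie to its right.

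The 400 genes also differed in which group left the range of the other tumours. Of the 236 higher in the Myf5Cre group, the Cre-unstated group lay below all 16 others for 81 (34.3%, beside 5.35% of all genes tested) and the Myf5Cre group above all 16 for 48 (20.3%, beside 4.17%). Of the 164 lower genes the Myf5Cre group lay below all 16 for 87 (53%, beside 4.87%), and the Cre-unstated group above all 16 for 19 (11.6%, beside 5.44%). Both groups thus left the range of the other tumours among the called genes. The 400 were selected for a difference between the groups, so shares above those of all genes are in part a result of that selection.

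Base composition moved with the calls. The median GC content of the longest transcript was 42.8% for the 203 protein-coding genes higher in the Myf5Cre group and 56.2% for the 120 lower, beside 49.9% for all 15292 tested. In the lowest of 10 equal bins by GC the median difference was 0.56 log2, with 81 genes higher and 2 lower. In the highest bin it was -0.42, with 0 higher and 41 lower. Within the 6 libraries, the correlation across genes of GC with a library's level less the mean of the 6 was positive in A (r = 0.26) and B (0.43) and negative in N2 (-0.17), N381 (-0.16), N428 (-0.16) and N460 (-0.15). N2 thus followed the Myf5Cre libraries in this measure and not its own group. When each library's trend with GC was removed as an offset in the same edgeR fit, an alternative chosen after seeing the data, 58 genes were higher and 47 lower. All 400 kept their direction, 101 of them were still called, and 13 of the 24 named genes were among those. Beyond these counts, the part of base composition in the differences was not tested.

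**Figure D3:**
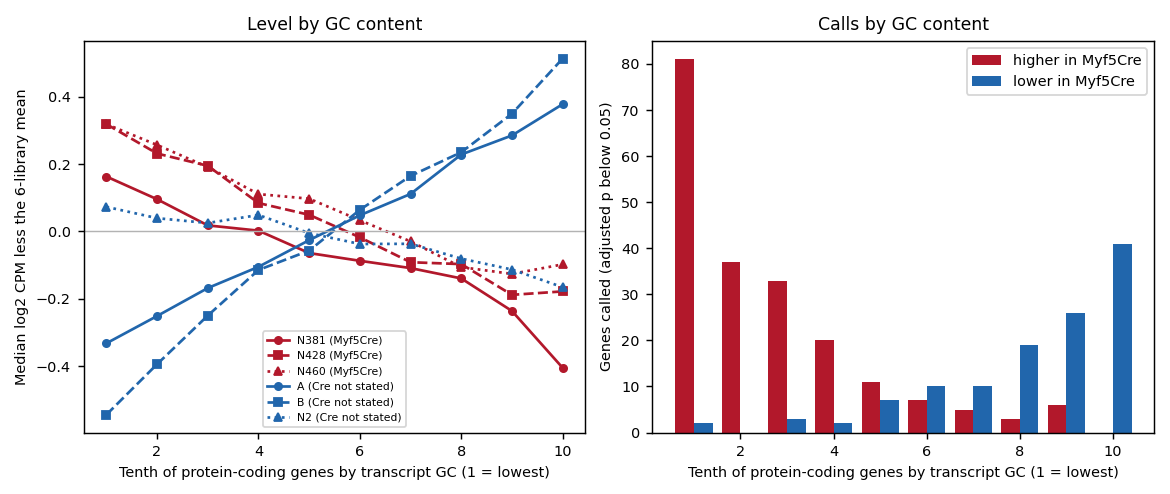
Left, median log2 CPM of protein-coding genes less their mean over the 6 libraries, in 10 equal bins by transcript GC, 1 line for each library (red Myf5Cre, blue Cre not stated). Right, bars count the genes called in each bin; A and B rise with GC while N2 falls as the Myf5Cre libraries do, and calls go from 81 higher at the low end to 41 lower at the high end.

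X-linked and zinc finger genes, whose median GC was below that of all genes, were counted among the calls. Of the 203 protein-coding genes higher, 20 (9.85%) were on the X chromosome, beside 536 of 15292 tested (3.51%), and edgeR called 0 X-linked genes lower (5 at an unadjusted p below 0.05, 0 by DESeq2 and 7 by limma voom). They included Zrsr2, a splicing factor (1.98 ± 0.34 log2, adjusted p = 0.0073), Rpgr of the cilium (1.98 ± 0.47, adjusted p = 0.034) and Atrx, a chromatin remodeller (0.96 ± 0.22, adjusted p = 0.033), chosen after their values were seen. The median GC was 41.7% for the 20 and 45.4% for the X-linked genes tested. With GC offsets 5 X-linked genes of any type were higher, out of 58 higher in all, and the change in their share was not tested. Of 336 genes named Zfp with a number, 19 were higher and 1 lower, beside 1.25% and 0.866% of all genes, and the difference from that share was not tested. The median GC of the 19 was 39.2% against 44.5% for the 336.

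Small structural RNAs lack the poly(A) tail that the library kit selects for, and some were lower in the Myf5Cre group. Of 30 small nuclear RNAs tested 10 were lower, of 113 small nucleolar RNAs 9, of 12 Cajal body RNAs 3 and of 45 RNAs of other kinds 9. Together 31 of 200 were lower and 0 higher by edgeR (8 higher at an unadjusted p below 0.05, 4 by DESeq2 and 5 by limma voom), beside 0.866% lower and 1.25% higher of all genes, with a median difference of -0.91 log2 beside 0.09 over all genes. Scarna6, which guides RNA modification in Cajal bodies, stood at 2.87, 1.02 and 0.52 log2 CPM against 6.93, 6.47 and 3.0. N2 was close to N381, the highest of the Myf5Cre group. Snora73b, a small nucleolar RNA, stood at 5.54, 3.10 and 2.96 against 9.85, 7.93 and 5.23, with N2 below N381. All counts of small RNA types together took 3.71%, 2.66% and 3.08% of the library in N381, N428 and N460 and 15.1%, 5.65% and 1.82% in A, B and N2, with 3.21% to 11.7% in the 16 others. The high shares were those of A and B, N2 had the lowest of the 6, and Rprl2 and Rprl3 were the 2 of 4 tested ribozymes that were higher in the Myf5Cre group. The part of RNA quality or poly(A) selection was not tested.

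In the other genotypes the Cre label is stated on both sides, so the same genes could be followed there. Between Myf5Cre and TATCre, 940 genes (4.97%) were called in Snf5-/- tumours and 344 (1.82%) in the combined genotype. Of the 400 genes called between the SS18-SSX groups, 12 were called in the first (3% of the 400 and 1.28% of the 940) and 6 in the second (1.5% and 1.74%). Across all genes tested, the SS18-SSX difference correlated with the Cre difference at r = -0.01 in Snf5-/- and 0.07 in combined tumours, which have no library in common with the 6. For Rprl2 the Cre differences were -0.75 ± 0.50 and -0.53 ± 0.47 log2 and for Fosb -0.37 ± 0.47 and 0.31 ± 0.46, none of them called. For Ppp1r9a they were 2.69 ± 0.79 (adjusted p = 0.054) and 2.81 ± 0.83 (adjusted p = 0.078), which did not pass. A direct test of whether the SS18-SSX difference departed from the mean of the 2 Cre differences called 393 genes (2.08%), 228 of them among the 400. The SS18-SSX difference is a part of that test (r = 0.98 between the 2 over the 400), so this overlap is largely built in. The test also sets the Cre-unstated group in the place of TATCre, although its Cre is not known. It gave an adjusted p of 4.5e-05 for Rprl2, 0.018 for Fosb, 0.043 for Aox1 and 0.44 for Ppp1r9a, genes named for a large SS18-SSX difference.

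Genes of lineage, cell type, pathway, position, tumour type, cell state, protein complex and sex lists were rarely called between the groups. Over 38 such lists with 766 tested genes, 3 were higher and 1 lower in the Myf5Cre group (0.522%, beside 2.11% of all genes). The 4 were Smarce1 and Bmi1 of complex lists and Sgce and Fosb of state lists, and 34 lists had 0 calls. At an unadjusted p below 0.05 there were 35 higher and 37 lower, DESeq2 called 14 and 10 and limma voom 20 and 36. For many of these genes the libraries of 1 group differed more than the groups did, so the interval of the difference was wide. For Myh4, a fast myosin, it ran from -6.97 to 2.86 log2. Low counts of calls in these lists therefore do not show that the groups are alike.

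Likeness between libraries followed the groups only in part. The mean correlation across genes was 0.913 for the 6 pairs from the same group (0.859 to 0.975) and 0.907 for the 9 pairs from different groups (0.872 to 0.931). N381 was closest to A (0.916) and N2 (0.915) and furthest from N428 (0.859) of its own group. N428 and N460 were close to each other (0.935). The first principal component (41.0% of the variance over genes) placed N381 and A at 1 end and N428 and N460 at the other, with B and N2 near 0, and the second (22.7%) placed N381, N428 and N460 above A, B and N2. Between-group differences took 23.0% of the summed squares over the 6 libraries, for 1 of 5 degrees of freedom.

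**Figure D4:**
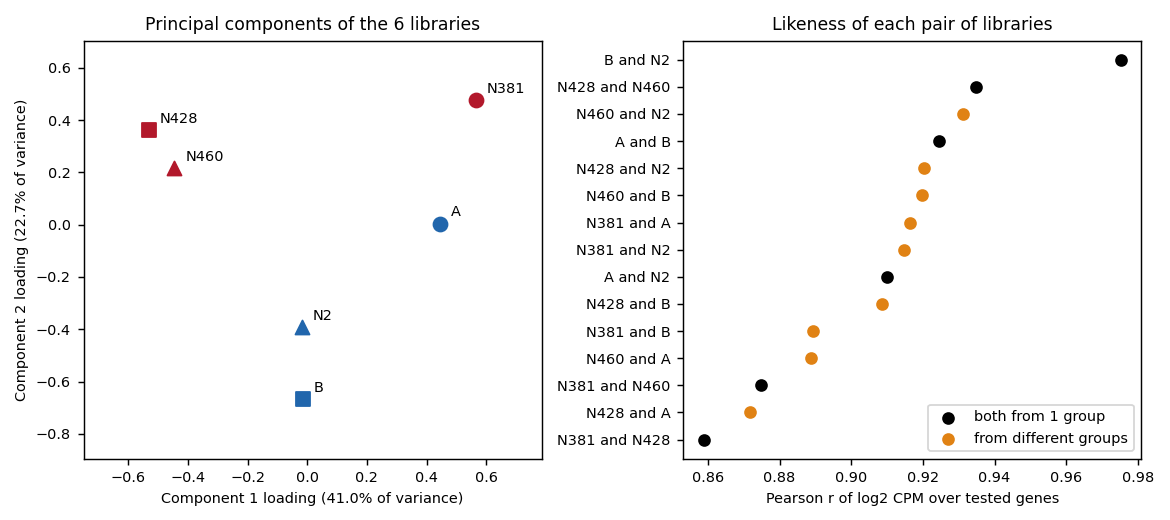
Left, loadings of the 6 libraries on the first 2 principal components of log2 CPM over all tested genes. Right, Pearson r of each of the 15 pairs of libraries, black where both are from 1 group and orange where not; the orange and black points interleave, with B and N2 highest at 0.975 and N381 and N428 lowest at 0.859.

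The spread over genes was wider in the Myf5Cre group. The median SD of log2 CPM was 0.58 there and 0.44 in the Cre-unstated group (3 libraries each), and 27.8% and 15.1% of genes had an SD above 1. The common dispersion gave a biological coefficient of variation of 70.6% and 47.1%. Without N381 the median SD of the Myf5Cre group was 0.34 over 2 libraries, and without A that of the Cre-unstated group was 0.305 over 2. With 3 libraries in each, no test of the difference in spread was made.

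Of the named genes, Ttn and Neb, both of the sarcomere, had the largest SD in the Myf5Cre group (6.39 and 6.15 log2 CPM). In the Cre-unstated group the largest was that of Fam107a (3.85), followed by the muscle genes Tnni2 (3.45) and Myh4 (3.40). Ttn, the giant spring protein of the sarcomere, stood at 13.52, 2.63 and 2.29 log2 CPM in N381, N428 and N460 and at 12.50, 7.91 and 8.35 in A, B and N2. It alone took 1.39% of all counts in N381 and 0.614% in A. Myh4 stood at 9.06, -1.79 and -1.43 and at 11.07, 5.33 and 5.03, and Ckm, the muscle creatine kinase, at 7.96, -1.59 and -1.43 and at 9.29, 3.89 and 3.21. In each, N381 and A were high, B and N2 intermediate and N428 and N460 low. Summed over the 30 genes of the list, the level was 19268 CPM in N381, 361 in N428, 300 in N460, 17949 in A, 726 in B and 757 in N2. The slow fibre genes departed from this order, since Myh7 was 6.93 in N381 but -1.58 in A, and Myl2 4.29 and -3.12.

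N381 and A were both above the other 4 libraries by over 2 log2 for 307 of the 18929 genes tested and both below them by that margin for 10. Of the 30 mature muscle genes 23 were among the 307, as were 5 of 27 myogenic progenitor and regulator genes, 5 of 9 adipocyte genes, 5 of 12 B and plasma cell genes and 5 of 23 T and NK cell genes. Adipoq, the adipocyte hormone adiponectin, stood at 3.83 in N381 and 2.23 in A but at -2.66 in N428 and -2.72 in N460. Ighm, the immunoglobulin heavy chain constant gene of B cells, stood at 9.04 and 8.24 in N381 and A against -0.30, 0.79, 2.78 and 2.29 in N428, N460, B and N2. The summed B and plasma cell level was 991 CPM in N381 and 630 in A against 6.57 to 14.6 in the others, with 4 of 12 members at 0 counts in N428. MHC class II genes, which present antigen, averaged 6.20 and 7.03 log2 CPM in N381 and A and 2.15 to 4.51 in the rest, and interferon response genes 3.28 and 3.52 against 0.50 to 1.62. Markers of these other tissues thus moved in part with N381 and A across the groups, while the other members of these lists fell outside the 307. Lpl of the adipocyte list, for example, stood at 6.26 in N428 and 4.72 in N460, above A (4.28). The part of such markers in other differences was not tested beyond leaving N381 and A both out. Without both, 139 genes were higher and 59 lower between the groups, and 10 of the 24 named genes were still called.

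Fibroblast and macrophage genes followed other libraries. Col3a1, a fibrillar collagen, stood at 10.87, 5.43 and 11.38 log2 CPM in the Myf5Cre group and at 11.29, 12.82 and 12.32 in the Cre-unstated group, so N428 was low by over 5 log2. The fibroblast list averaged 3.50 in N428 and 5.83 to 7.20 in the other 5, with 3 of 26 members at 0 counts in N428. Lyz2, the lysozyme of macrophages, stood at 6.74, 8.34 and 4.83 and at 7.87, 5.75 and 5.86, lowest in N460, although 15.4% of its stretches occur in other genes. The macrophage list averaged 1.84 in N460 and 2.56 to 4.34 in the others. Cell cycle genes were lowest in N381, with a list mean of 3.84 against 4.96 to 6.16, and Cdk1, the mitotic kinase, at 2.26 against 4.20 to 5.75.

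**Figure D5:**
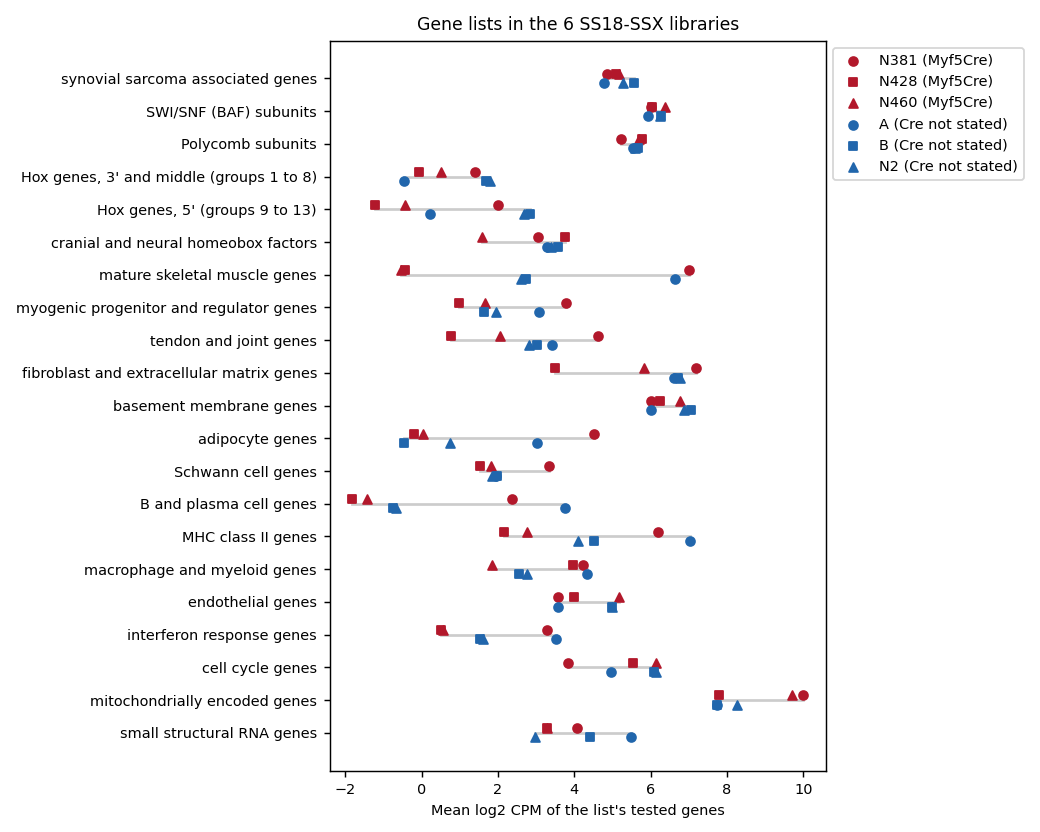
Mean log2 CPM of the tested genes of 21 lists in each of the 6 libraries (red Myf5Cre, blue Cre not stated); grey lines span the 6. Mature skeletal muscle runs from -0.54 to 7.02 with N381 and A at the top, whereas BAF and Polycomb subunits stay within narrow ranges.

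Transcription factors of body position varied among the tumours more than between the groups. Hox genes are laid out in clusters whose order follows the body axis, and the genes of groups 9 to 13 mark the hind end and the ends of limbs. Their list mean was 2.0, -1.21 and -0.42 log2 CPM in N381, N428 and N460 and 0.22, 2.83 and 2.69 in A, B and N2. Hoxc10 stood at 4.90 in N381 and at 2.69, 4.73 and 4.05 in A, B and N2 but had 0 counts in N428 and N460. Hoxc11 was 4.89, 1.67, 3.90 and 3.82 in the same 4, and -2.31 and -3.12 in N428 and N460. Hoxd13, the last gene of the HoxD cluster, was instead highest in N460, at 4.56 against -0.86 to 3.08 in the others. None of the 15 was called by edgeR, beside 2.11% of all genes (0 at an unadjusted p below 0.05, 0 by DESeq2). By limma voom 6 were lower in the Myf5Cre group, and the median difference was -0.70.

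Neural and cranial factors showed the same kind of spread. Zic1, a zinc finger factor of the dorsal neural tube, stood at 5.42, 4.66 and -2.72 log2 CPM in N381, N428 and N460 and at 0.51, 5.94 and 5.90 in A, B and N2, so it was near absent in 1 library of each group. Pax6, known from eye and brain development, stood at 4.17, 7.89 and 0.37 and at 4.38, 4.43 and 4.69. En2, a factor of the midbrain and hindbrain, was between 5.18 and 6.51 in 5 libraries and -0.01 in N460. Pou3f3, a neural POU factor, was 5.15 to 7.94 in all 6. Of the 26 tested genes of that list 0 were called by edgeR, beside 2.11% of all genes (1 at an unadjusted p below 0.05, 0 by DESeq2 and 2 by limma voom).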

How the data were processed

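Fresh frozen tumours gave RNA through the RNeasy Mini kit, and TruSeq Stranded mRNA was the library kit, per the labels' protocols. Without saying which step used which, the submitters' processing notes list DESeq2, RSEM, featureCounts, STAR 2.7.5a, cutadapt and the build mm10. What the authors deposited is a table of raw counts for 48440 Ensembl gene IDs, whole numbers without normalisation. The sources used here do not give the treatment of reads that fit several genes. Where over 5% of a described gene's 50-base transcript stretches were found in other genes, its count is uncertain and that share is printed. Names and positions came from GENCODE M21 (GRCm38, the assembly of mm10).

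In R 4.3.3, edgeR 4.0.16 kept 18929 genes with filterByExpr on the 6 groups (at least 10 counts, 15 in total), scaled by TMM and fitted 1 quasi-likelihood model to all 22 libraries. The call threshold was a Benjamini-Hochberg adjusted p of 0.05, and adjusted p-values in the text are edgeR's from that model where no other tool is named. The fit was also run on simulated counts with known changes. These gave each gene the same spread in all libraries and no trend with GC, so unequal spread and GC trends were not tested there. Levels are log2 CPM with prior count 2, differences are log2 with their SE, and a group has 3 libraries. Total counts of 8642648 to 25177722 set the precision. DESeq2 1.42.0, limma 3.58.1 (voom with quality weights), RLE scaling, other filters, thinning, single libraries left out, GC offsets, B and N2 summed, N381 with A left out, and libraries with few Y-linked counts alone were tried as alternatives, the last 4 after seeing the data.

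Named genes were those with a symbol that is no predicted model. For the difference these were the 12 largest called in each direction with no overlap and a mean of at least 1 log2 CPM. For what is shared they were the 12 highest and 12 lowest bounded genes at a level of at least 3, of which 1 is not reported here. For spread they were the 8 with the largest SD in each group, and for the lists up to 4 called genes, with a few fixed by name. Members of lists outside this rule were named for their spread after their values were seen. The groups, the gene lists and this rule were chosen with earlier results of these data known.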

Additional observations from a re-analysis of the deposited data

Results flagged for a closer look

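Within the 6 libraries, 7 of 43 list means had 1 library whose gap to the nearest other exceeded 62.5% of the range, the limit that chance passes in about 1 list in 20. Lists share libraries and are not independent. N428 was low for fibroblast and extracellular matrix genes (3.50 log2 CPM against 5.83 to 7.20 in the other 5), for Bmp and Tgf beta pathway genes (3.84 against 4.90 to 5.38) and for Wnt pathway genes (3.97 against 4.44 to 4.71). N381 was high for Schwann cell genes (3.34 against 1.54 to 1.97) and long nuclear RNA genes (8.01 against 6.06 to 6.68) and low for replication-dependent histone genes (2.54 against 4.37 to 5.41). N460 was low for cranial and neural homeobox factors (1.59 against 3.06 to 3.75). All 7 flags fell on libraries of the Myf5Cre group, and none on A, B or N2.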

How the results depend on the processing

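No paired analysis was possible because the tags of the SS18-SSX groups share no number, and replicate numbers were given in accession order. The 236 genes higher and 164 lower in the Myf5Cre group became 63 and 52 with no low-count filter, 58 and 47 with GC offsets, 139 and 59 without N381 and A, 772 and 599 by DESeq2, 1449 and 875 by limma voom, and 1 and 0 in the 6 libraries alone; with B and N2 summed they became 80 and 126. Leaving out 1 library gave 17 to 439 higher and 16 to 373 lower. The 363 genes higher and 308 lower in all 6 became 573 and 669 without N381 and A (a rule over 4 libraries) and 1001 and 589 among libraries with few Y-linked counts (fewer tumours to exceed; chosen after seeing the data); leaving out 1 library gave 357 to 467 and 446 to 607. With no filter the bounded genes rose from 3815 to 6640 and the calls of the departure from the Cre differences fell from 393 to 71. Leaving out 1 library gave 2667 to 3424 bounded genes and a median SD of 0.34 to 0.534 in the Myf5Cre group and 0.305 to 0.449 in the Cre-unstated group. RLE scaling shifted the difference by -0.03 log2. The median difference over all genes, 0.09, was -0.04 by limma voom and -0.03 without N381, so list medians near 0 have no firm sign. No called result changed sign under the alternatives run. Of 2629 values of single results under an alternative 2411 kept their side of the threshold, 193 were no longer past it, 23 were newly past it and 2 moved. Direction was compared only for results called in the main fit, so the 2411 may hold uncalled results that changed sign. The cause of these changes was not tested. Depth was lowest in A; thinning the 6 libraries to its depth gave 208 higher and 166 lower.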
